A study of Mus musculus with 12 samples.

Results

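Cited2 and the hypoxia-inducible factor (HIF) axis, 10 genes of the 54022 in the tables, were described across 12 RNA-seq libraries of MIN6 cells. Cited2 was chosen on these data, because it ranked high (3 by p of 16222 genes tested) for TMAO against vehicle at low glucose without passing adjustment. The other 9 genes were taken by name as parts of the HIF pathway. A filter on low counts kept 9 of the 10 genes and removed Egln3. MIN6 is an insulin-secreting mouse line derived from an insulinoma, and all groups were this line with the genotype WT. Cells received vehicle or trimethylamine N-oxide (TMAO, 100 nM, 18 h), a metabolite formed in the liver from the trimethylamine of gut bacteria, at low or high glucose. The 4 groups of 3 libraries were low glucose with vehicle, low glucose with TMAO, high glucose with vehicle and high glucose with TMAO. The submitters call the 3 libraries biological replicates without saying how the cultures were separated, so p-values measure the spread between these libraries.

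HIF is a transcription factor made of an oxygen-regulated alpha subunit (Hif1a, or Epas1, which encodes HIF-2 alpha) and the stable partner Arnt. When oxygen is available, the prolyl hydroxylases Egln1, Egln2 and Egln3 modify the alpha subunit, the Vhl ubiquitin ligase marks it for degradation, and the asparaginyl hydroxylase Hif1an blocks its binding to the coactivators CBP and p300. CITED2 competes with the alpha subunit for the same domain of CBP and p300. Cited2 and Egln3 are themselves HIF target genes, as is Vegfa, the endothelial growth factor that beta cells release towards islet vessels. Much of this control acts on protein, which these libraries did not measure.

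The 250 bases before the start of Cited2, Vegfa and Egln3 are shown because these 3 members are HIF target genes that stood at very different levels. Sequences are from RefSeq on GRCm38.p6 and run 5′ to 3′ on the strand of the gene. The starts are those of RefSeq, and the Cited2 window ends past the deposited start of the gene (17723218). Capitals mark ACGTG or GCGTG on either strand, the core of the hypoxia response element, and overlapping matches run together.
Cited2: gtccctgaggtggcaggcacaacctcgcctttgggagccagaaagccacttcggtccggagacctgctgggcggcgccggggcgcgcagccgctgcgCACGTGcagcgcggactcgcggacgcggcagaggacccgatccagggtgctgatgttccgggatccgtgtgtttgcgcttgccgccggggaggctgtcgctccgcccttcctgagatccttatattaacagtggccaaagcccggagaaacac
Vegfa: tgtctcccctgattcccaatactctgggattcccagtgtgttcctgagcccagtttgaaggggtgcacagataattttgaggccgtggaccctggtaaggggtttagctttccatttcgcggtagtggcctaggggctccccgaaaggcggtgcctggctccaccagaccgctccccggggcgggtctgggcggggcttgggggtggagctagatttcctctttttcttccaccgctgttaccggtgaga
Egln3: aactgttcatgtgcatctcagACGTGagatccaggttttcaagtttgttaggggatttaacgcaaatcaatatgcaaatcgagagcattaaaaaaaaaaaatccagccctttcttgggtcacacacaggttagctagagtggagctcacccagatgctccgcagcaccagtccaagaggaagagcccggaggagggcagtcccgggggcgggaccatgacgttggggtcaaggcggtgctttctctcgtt
The Cited2 window (chr10:17722978-17723227, plus strand) held CACGTG, in which ACGTG reads on both strands. The Vegfa window (chr17:46032378-46032627, minus strand) held no match, while a window at another annotated Vegfa start held 2. The Egln3 window (chr12:54203875-54204124, minus strand) held 1 match. These letters are common, and 12679 of 32851 promoter windows of this length (38.6%) held ACGTG or GCGTG on either strand. Of the 10 genes, 9 had at least 1 window, and 7 of these held a match. CACGTG was in 6.02% of all windows. GC content was 66.8% in the Cited2 window, against a median of 52.4% over all windows. A match is a description of letters and not a bound site.

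The libraries carried the markers of a beta-cell line. All 8 beta-cell markers had a mean over the 12 libraries above 1 FPKM (fragments per kilobase of gene, scaled to the mapped fragments of each library, so a level per length), and their summed level was 39770 to 47250 FPKM. Of 6 markers of other islet endocrine cells, 2 had a mean above 1 FPKM, led by the glucagon gene Gcg at a mean of 216 FPKM. Of 8 acinar, endothelial, fibroblast and leukocyte markers, 0 had a mean above 1 FPKM (Cela1, an acinar marker, was highest with a mean of 0.962 FPKM and up to 1.49 FPKM in a library), their summed level was at most 1.94 FPKM, and Ptprc and Adgre1 were at 0 in all 12 libraries. Total counts per library ran from 16793162 to 22340542.

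Levels per length differed widely among the 10 genes. Vegfa was highest, with a mean of 86.1 FPKM (range 79.5 to 94.3, n = 12). Cited2 followed at 57.5 FPKM (42.5 to 75.5), and its range overlapped that of Egln2, which encodes PHD1, at 43.9 FPKM (39.8 to 49.0). Vhl at 20.6 FPKM (17.0 to 22.5) overlapped Hif1an at 19.7 FPKM (19.3 to 20.5). Hif1a at 14.95 FPKM (13.2 to 16.4) overlapped Egln1, which encodes PHD2, at 13.5 FPKM (12.7 to 14.5). Arnt stood below all of these at 9.63 FPKM (8.85 to 10.6). Epas1 and Egln3, which encodes PHD3, were near the limit of detection. Epas1 had 5 to 19 counts per library, a mean of 0.107 FPKM. Egln3 had 7 counts over all 12 libraries and was at 0 in 9 of them, and it therefore received neither a test nor a fold change.

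The 8 genes other than Epas1 and Egln3 also differed in how far they moved between libraries. The highest Cited2 library was 1.78 times the lowest. The same ratio was 1.32 for Vhl, 1.24 for Hif1a, 1.23 for Egln2, 1.19 for Vegfa and for Arnt and 1.14 for Egln1. Hif1an was the steadiest of the 8, with a ratio of 1.06.

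Cited2 was lower at high glucose. Cited2 (ENSMUSG00000039910) lies on chromosome 10 from 17723218 to 17725674 on the plus strand of mm10, and no other annotated gene overlaps it. At low glucose with vehicle the 3 libraries had 75.5, 72.5 and 74.9 FPKM. At low glucose with TMAO they had 67.0, 55.3 and 66.6 FPKM. All 6 low-glucose libraries lay above every high-glucose library. At high glucose the level was 49.0, 47.1 and 46.6 FPKM with vehicle and 47.1, 46.3 and 42.5 FPKM with TMAO. Over all genes tested, 2.32% had all 6 high-glucose libraries below all 6 low-glucose libraries.

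**Figure D1:**
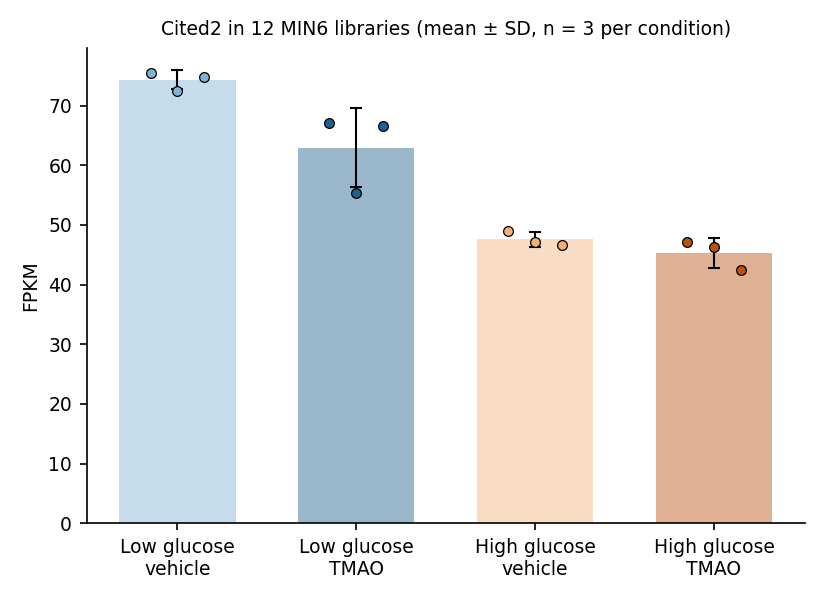
Cited2 level in FPKM (vertical axis, from 0) in each library of the 4 groups (horizontal axis), with points for libraries and bars for the group mean and SD (n = 3). The 6 high-glucose libraries sit between 42.5 and 49.0 FPKM, below all 6 low-glucose libraries, and 1 low-glucose TMAO library at 55.3 FPKM sits below the other 5.

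Averaged over vehicle and TMAO, Cited2 fell by 32.1% from low to high glucose, a log2 fold change of -0.56 (SE 0.042, 95% confidence interval -0.64 to -0.47). The adjusted p was 1.42e-10 (edgeR quasi-likelihood test, adjusted over all genes by Benjamini-Hochberg). Cited2 ranked 65 by p among the 16222 genes and 25 by size among the 658 genes that fell. This contrast takes the mean of the low-glucose groups and not the difference between them that chose Cited2. Within vehicle the log2 fold change was -0.64 (SE 0.059) and within TMAO it was -0.47 (SE 0.059). These within-treatment values are given without a test, since they contain the low-glucose libraries on which Cited2 was selected. The summed markers of other islet endocrine cells moved with glucose as well, from 200.4 to 218.1 FPKM at low glucose to 223.8 to 229.2 FPKM at high glucose, nearly all of it Gcg, and their part in the Cited2 difference was not tested. In bulk libraries such as these, fewer cells of a type and less RNA per cell cannot be told apart.

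At low glucose, the contrast that chose Cited2, the 3 TMAO libraries lay below the 3 vehicle libraries, at means of 63.0 ± 6.67 and 74.3 ± 1.59 FPKM (SD, n = 3). The log2 fold change was -0.24 (SE 0.058), which is a description because the gene was picked for it. Over all genes tested, 3.18% had all TMAO libraries below all vehicle libraries in this contrast. TMAO replicate 2 held the lowest value, and without it the log2 fold change was -0.15. For the other tested members apart from Epas1, whose value was -0.06 (SE 0.48), the log2 fold change lay between -0.06 (Hif1a) and 0.03 (Egln1).

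The high-glucose libraries did not enter the low-glucose difference in Cited2, although they share the estimate of spread behind its rank by p. Here Cited2 was at 47.6 ± 1.25 FPKM with vehicle and 45.3 ± 2.46 FPKM with TMAO (SD, n = 3). The groups overlapped. The log2 fold change was -0.07 (SE 0.060, 95% confidence interval -0.20 to 0.05, adjusted p = 0.94 in edgeR). Without TMAO replicate 3, the lowest library, it was -0.03. Whether the TMAO effects at the 2 glucose levels differ was not tested, since the one at low glucose chose the gene.

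Among the genes that degrade or restrain the alpha subunit, Vhl, the substrate-binding part of the ubiquitin ligase, was lower at high glucose. Vhl lies on chromosome 6 from 113623959 to 113631633, plus strand. The Vhl level at low glucose was 22.5, 22.5 and 20.6 FPKM with vehicle and 22.2, 22.2 and 20.6 FPKM with TMAO. At high glucose it was 19.3, 19.9 and 17.0 FPKM with vehicle and 19.8, 20.9 and 19.1 FPKM with TMAO. The glucose groups overlapped through 1 high-glucose TMAO library at 20.9 FPKM and the low-glucose libraries at 20.6 FPKM. Vhl fell by 11.1%, a log2 fold change of -0.17 (SE 0.043, 95% confidence interval -0.26 to -0.08), with an adjusted p of 0.00927 in edgeR. The log2 fold change was -0.22 within vehicle and -0.12 within TMAO.

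The hydroxylases did not pass the test for glucose. Egln2 had group means between 41.1 ± 1.20 FPKM at high glucose with TMAO and 45.1 ± 0.786 FPKM at low glucose with vehicle (SD, n = 3). Its log2 fold change for glucose was -0.07 (SE 0.039, adjusted p = 0.306 in edgeR). The Cyp2t4 gene, with a mean of 14.1 counts, overlaps Egln2 on the other strand. Egln1 had group means between 13.3 and 13.7 FPKM, and its log2 fold change was 0.02 (SE 0.043, 95% confidence interval -0.07 to 0.11, adjusted p = 0.875 in edgeR). Hif1an, the enzyme that acts on the site where coactivators bind, had group means between 19.41 and 19.95 FPKM. Its interval for glucose was the narrowest of the members, at -0.04 to 0.08 around a log2 fold change of 0.02 (adjusted p = 0.802 in edgeR).

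**Figure D2:**
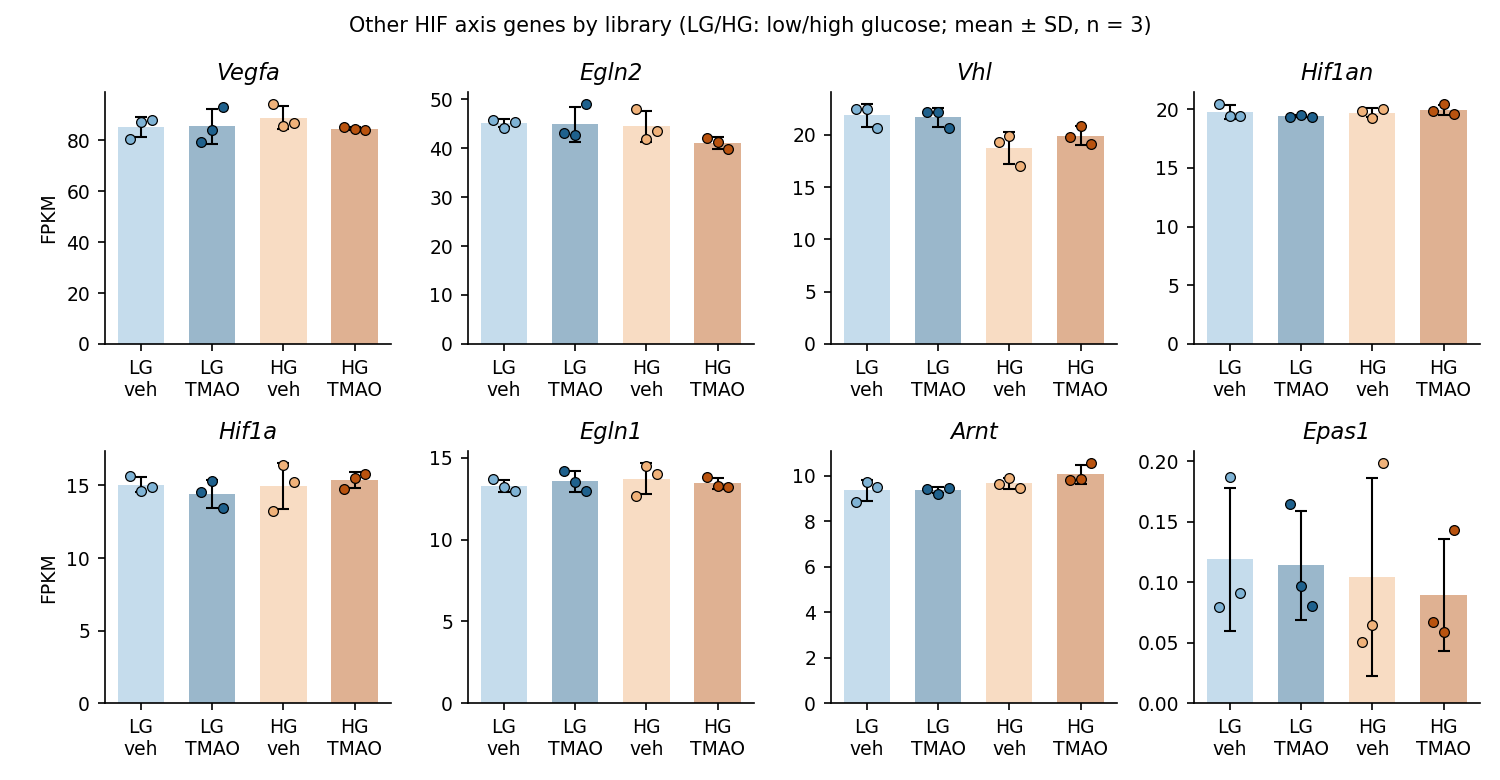
Level in FPKM (vertical axes, from 0, a scale of its own in each panel) of the 8 members other than Cited2 and Egln3 in each library of the 4 groups (horizontal axes), with points for libraries and bars for the group mean and SD (n = 3). Vhl is lower in the high-glucose groups, Hif1an stays within 19.3 to 20.5 FPKM, and Epas1 stays under 0.2 FPKM.

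None of the HIF subunits passed the test for glucose. Hif1a was at 15.7, 14.6 and 14.9 FPKM at low glucose with vehicle and at 14.5, 15.3 and 13.4 FPKM with TMAO. At high glucose it was at 13.2, 16.4 and 15.2 FPKM with vehicle and at 14.8, 15.5 and 15.8 FPKM with TMAO. The 4 groups overlapped, and the log2 fold change for glucose was 0.04 (SE 0.044, 95% confidence interval -0.05 to 0.13, adjusted p = 0.667 in edgeR). An antisense gene, Gm15283, overlaps Hif1a with a mean of 7.42 counts, and reads of the 2 strands may not be separated. A pseudogene, Gm42672, with a mean of 12.2 counts, lies within Arnt. Arnt had group means from 9.37 to 10.1 FPKM and a log2 fold change of 0.08 (SE 0.037), with an unadjusted p of 0.044 and an adjusted p of 0.231 in edgeR. Epas1 had a log2 fold change of -0.30 with a 95% confidence interval from -1.03 to 0.43, so at 5 to 19 counts per library a difference of the size seen in Cited2 was not detectable.

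Vegfa, the most abundant member, did not pass the test for glucose. It lies on chromosome 17 from 46016993 to 46032369, minus strand. Vegfa was at 80.8, 87.1 and 88.2 FPKM at low glucose with vehicle and at 79.5, 84.1 and 93.0 FPKM with TMAO. At high glucose it was at 94.3, 85.6 and 87.0 FPKM with vehicle and at 85.4, 84.7 and 83.9 FPKM with TMAO. The glucose groups overlapped, and the log2 fold change was 0.02 (SE 0.036, 95% confidence interval -0.05 to 0.10, adjusted p = 0.789 in edgeR).

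Over the 9 members tested for glucose, 2 fell (Cited2 and Vhl), 0 rose and 7 did not pass. Over all genes tested, 4.06% fell and 4.13% rose. The members' median log2 fold change was 0.02, against 0.00 over all genes. Epas1 was kept by the filter at low counts, and Egln3 is not in these numbers.

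For TMAO at high glucose 0 of 9 members passed the test, and 0% of all genes did. Across all 16222 genes edgeR gave 868 at an unadjusted p under 0.05 and DESeq2 gave 590. A share of 0.05 of the genes would pass that threshold without any difference. Egln2 had the lowest unadjusted p of the members, 0.0483 (log2 fold change -0.11, SE 0.056, adjusted p = 0.91 in edgeR), with overlapping libraries. Vegfa was the 1 member whose groups did not overlap, all 3 TMAO libraries being lower, against 11.1% of all genes not overlapping in either direction. Its log2 fold change was -0.07 (SE 0.051, 95% confidence interval -0.18 to 0.03, adjusted p = 0.927 in edgeR). Vehicle replicate 1 was the highest of the 6 high-glucose libraries for both genes, and without it the log2 fold change was -0.03 for Vegfa and -0.05 for Egln2. Vhl had 0.09 (SE 0.061), Arnt 0.06 (SE 0.052), Hif1a 0.04 (SE 0.062), Hif1an 0.02 (SE 0.045), Egln1 -0.03 (SE 0.060) and Epas1 -0.21 (SE 0.53) as log2 fold changes for TMAO.

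**Figure D3:**
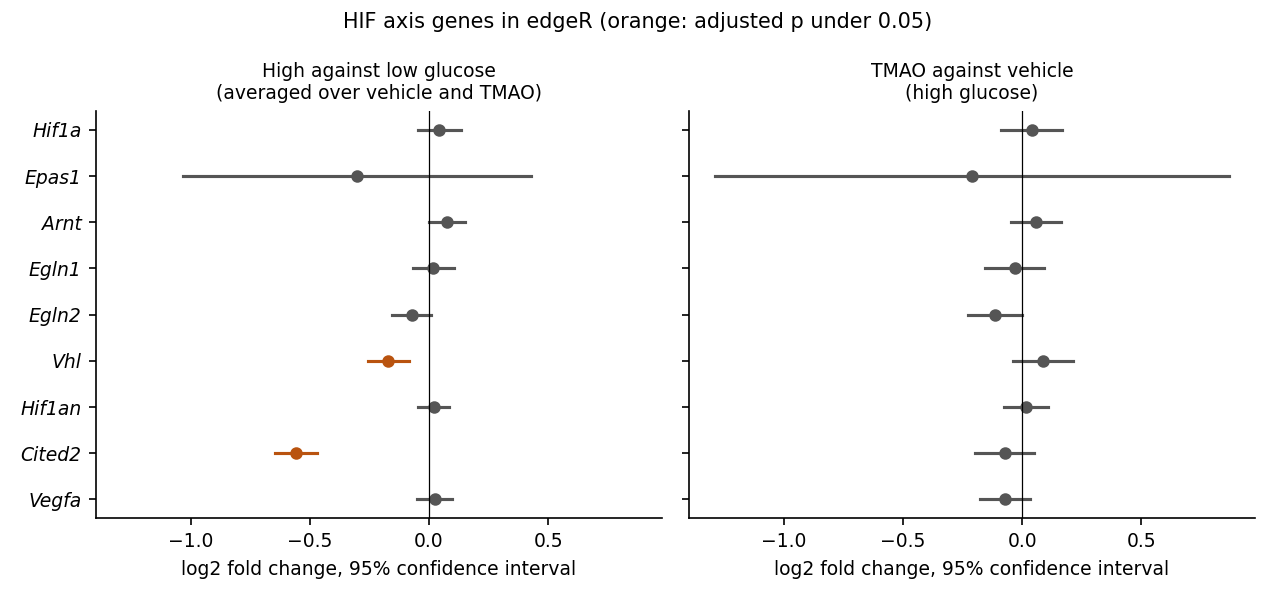
Log2 fold changes (horizontal axis) of the 9 tested members (rows) for high against low glucose, left, and for TMAO against vehicle at high glucose, right, as points with 95% confidence intervals from edgeR. Cited2 at -0.56 and Vhl at -0.17 are the 2 members past an adjusted p of 0.05 for glucose, and none is for TMAO.

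Partners and regulators of the axis were listed separately, from general knowledge, as 16 genes of which 11 passed the filter. For glucose, 1 rose, 2 fell and 8 did not pass, with a median log2 fold change of -0.06. Called in either direction were 3 of the 11 (27.3%) and 1328 of all 16222 genes tested, of which 4.13% rose and 4.06% fell. Siah2, a ubiquitin ligase that targets prolyl hydroxylases for degradation, rose by 0.37 on the log2 scale (SE 0.036, adjusted p = 5.13e-09 in edgeR), from 25.3 to 27.6 FPKM in the 6 low-glucose libraries to 33.2 to 37.4 FPKM in the 6 high-glucose libraries. Its relative Siah1a fell by 0.15 (SE 0.043, adjusted p = 0.0307 in edgeR), from 23.0 ± 1.4 to 20.7 ± 0.78 FPKM (SD, n = 6). Crebbp, which encodes CBP, fell by 0.18 (SE 0.052, adjusted p = 0.0447 in edgeR), from 8.91 ± 0.47 to 7.88 ± 0.81 FPKM (SD, n = 6). The Crebbp call held in 3 of 12 fits that left out 1 library, those without low-glucose TMAO replicate 1, high-glucose vehicle replicate 1 or high-glucose TMAO replicate 2. The Siah1a call held in 6 of 12, and was lost without low-glucose vehicle replicates 1 or 2, low-glucose TMAO replicates 1 or 3, high-glucose vehicle replicate 2 or high-glucose TMAO replicate 3. Over all 19 settings, these fits among them, Crebbp was called in 6 and Siah1a in 13. The log2 fold change of Crebbp stayed between -0.22 and -0.14 (highest adjusted p 0.13). That of Siah1a stayed between -0.17 and -0.13 (highest adjusted p 0.0973). Ep300, which encodes p300, had a log2 fold change of -0.08 (SE 0.035, adjusted p = 0.223 in edgeR). The other members of the Vhl complex, Elob, Eloc, Cul2 and Rbx1, were at 366, 26.9, 12.7 and 85.7 FPKM on average, and none passed. Of the CITED family Cited2 was the most abundant, with Cited4 at 1.72 FPKM and Cited1 at 0.0849 FPKM on average. Arnt2, a paralogue of Arnt, was at 10.5 FPKM and Hif3a at 0.021 FPKM. The AP-2 genes Tfap2a, Tfap2b and Tfap2c, whose products CITED2 can coactivate, had at most 2 counts in any library.

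Of 53 further HIF target genes, 40 passed the filter, and for glucose 4 rose, 0 fell and 36 did not pass, with a median log2 fold change of 0.02. The 4 are 10% of the 40, against 4.13% of all genes that rose and 4.06% that fell. Bhlhe40, a repressor that also acts on clock genes, rose by 0.35 on the log2 scale (SE 0.057, adjusted p = 4.66e-05 in edgeR), from 3.97 ± 0.30 to 5.07 ± 0.28 FPKM (SD, n = 6). Tfrc, the transferrin receptor, rose by 0.22 (SE 0.031, adjusted p = 6.34e-06 in edgeR), from 39.3 ± 1.3 to 45.8 ± 1.5 FPKM (SD, n = 6). Rora, a nuclear receptor, rose by 0.17 (SE 0.047, adjusted p = 0.0209 in edgeR), and Ero1l, an oxidase of disulfide formation in the endoplasmic reticulum, by 0.15 (SE 0.042, adjusted p = 0.0217 in edgeR). In Bhlhe40, Tfrc and Ero1l, and in Siah2 among the regulators, all 6 high-glucose libraries lay above all 6 low-glucose libraries, as they did in 2.62% of all genes tested. The Rora libraries overlapped. With 1 library left out the Ero1l call held in 7 of 12 fits, and was lost without low-glucose vehicle replicate 1, low-glucose TMAO replicate 1, high-glucose vehicle replicates 2 or 3 or high-glucose TMAO replicate 3. The Rora call held in 5 of 12, and was lost without any of these 5 and also without low-glucose vehicle replicate 2 or high-glucose TMAO replicate 2. Over all 19 settings, these fits among them, Rora was called in 10 and Ero1l in 14. The log2 fold change of Rora stayed between 0.13 and 0.22 (highest adjusted p 0.143). That of Ero1l stayed between 0.12 and 0.16 (highest adjusted p 0.0883).

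**Figure D4:**
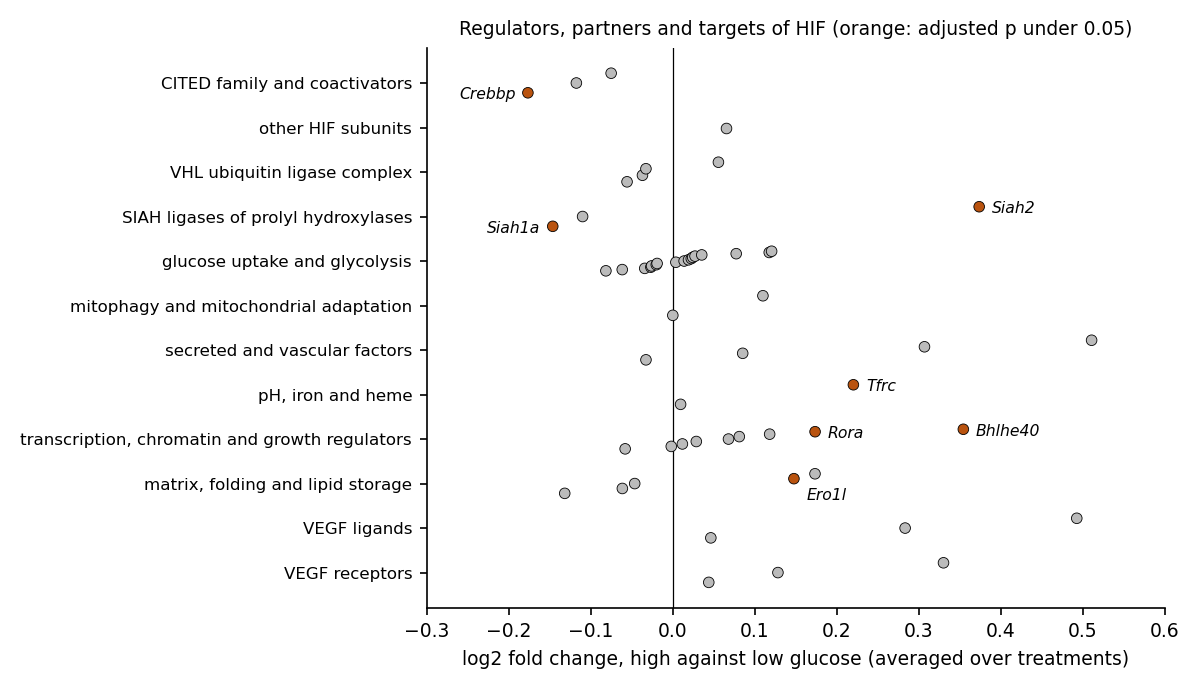
Log2 fold changes for high against low glucose (horizontal axis) of the tested partners, regulators and target genes, 1 point a gene, by role (rows), with genes past an adjusted p of 0.05 in edgeR in orange and named. Siah2 at 0.37 and Bhlhe40 at 0.35 lie farthest right among them, none of the glycolytic genes is orange, and Gapdh, at -1.15 with an SE of 0.466, is outside the plotted range.

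Target genes of glucose uptake and glycolysis made up 20 of the 53, of which 18 passed the filter and 0 were called for glucose, with a median log2 fold change of 0.01. Of all genes tested, 4.13% rose and 4.06% fell, with a median of 0.00. A count of 0 among 18 is therefore not read as a lack of response. Pgk1 was at 119 to 133 FPKM and Pkm at 309 to 341 FPKM over the 12 libraries. Ldha, which beta cells normally keep low, was at 2.83 to 3.79 FPKM, and the glucose transporter gene Slc2a1 at 4.18 to 5.75 FPKM (log2 fold change 0.12, SE 0.061, adjusted p = 0.267 in edgeR). The hexokinase gene Hk2 had at most 1 count in any library. Of other target genes often read as signs of low oxygen, Bnip3 was at 9.06 to 11.3 FPKM with a log2 fold change of 0.00, and Car9 had at most 2 counts in any library. Gapdh ranged from 3.47 to 43.2 FPKM, and the cause of this spread was not tested. As a gene with many near-identical pseudogene copies, Gapdh is given as uncertain. For TMAO at high glucose, 0 of the 40 target genes and 0 of the 11 partners and regulators passed in edgeR.

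Beside Vegfa, 9 ligand and receptor genes of the VEGF family were listed, 6 passed the filter and 0 were called for glucose. Over all genes tested, 4.13% rose and 4.06% fell, so 0 among 6 is not read as a lack of response. The median log2 fold change of the 6 was 0.21, against 0.00 over all genes. The genes above this median had few counts. Vegfd had a log2 fold change of 0.49 (SE 0.189, mean 28.5 counts) and Vegfc 0.28 (SE 0.161, mean 40.5 counts). Nrp2 had 0.33 (SE 0.325, mean 9.5 counts). Below the median lay Nrp1 at 0.13, Flt4 at 0.04 (mean 39.8 counts) and Vegfb. Vegfb, a ligand, was at 49.2 to 53.4 FPKM (log2 fold change 0.05, SE 0.034, adjusted p = 0.505 in edgeR). The receptor genes Flt1 and Kdr were at 0 and at most 1 count in any library, and the coreceptor gene Nrp1 was at 0.832 to 1.05 FPKM. For TMAO at high glucose 0 of the 6 passed.

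The genes whose pattern was most like Cited2 were found by Pearson correlation of log2 counts scaled to library size (TMM, prior count 2) over the 12 libraries, among tested genes with a mean of at least 50 counts. The closest 5 were Gadd45g (r = 0.973), Zbtb45 (r = 0.966), Pimreg (r = 0.966), Zfp212 (r = 0.961) and Rgmb (r = 0.957). The points share the glucose step, so these values describe likeness and carry no test. Gadd45g, a stress-response gene, went from 57.5 ± 3.3 FPKM at low glucose with vehicle and 50.9 ± 4.8 FPKM with TMAO to 25.3 ± 1.8 and 24.1 ± 2.3 FPKM at high glucose (SD, n = 3). Zbtb45, a zinc finger gene, was at 7.86 ± 0.15 and 7.55 ± 0.48 FPKM at low glucose and at 6.18 ± 0.20 and 6.16 ± 0.13 FPKM at high glucose. Their glucose changes differed in size from that of Cited2, with log2 fold changes of -1.13 for Gadd45g, -0.32 for Zbtb45, -0.14 for Pimreg, -0.28 for Zfp212 and -0.34 for Rgmb.

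**Figure D5:**
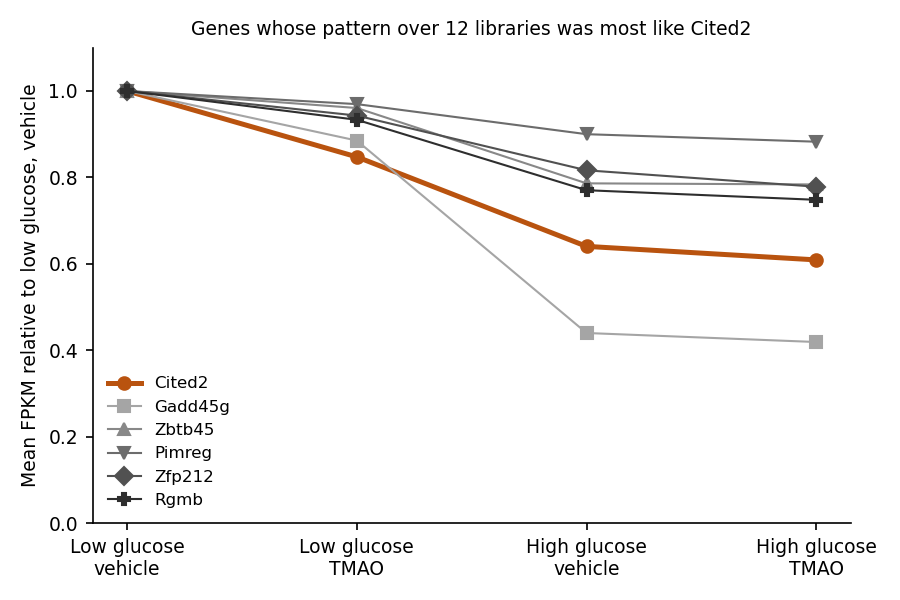
Group mean FPKM of Cited2 and of the 5 genes most like it, relative to low glucose with vehicle (vertical axis), in the 4 groups (horizontal axis). All 6 genes step down at high glucose, Gadd45g more than Cited2 and the other 4 less.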

How the data were processed

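RNA of MIN6 cells was sequenced in 12 libraries, grouped by treatment from the sample titles. The authors deposited raw counts per gene and FPKM values per gene, with the coordinates of each gene. The submitters' processing notes name HISAT2 2.0.5, featureCounts 1.5.0-p3, DESeq2 1.16.1 and mm10 with no role. Whether counting used strand is not given in the sources used here, so reads of overlapping genes on opposite strands may not be separated. Depth was 16793162 to 22340542 counts per library, and intervals cover the spread between libraries.

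Deposited counts were tested with edgeR 4.0.16 (R 4.3.3, TMM factors, filterByExpr by group, quasi-likelihood F test with robust moderation) in a model of the 4 group means. Two-sided p-values were Benjamini-Hochberg adjusted over 16222 genes, with a threshold of 0.05. Tests were made for glucose averaged over treatments and for TMAO at high glucose. FPKM gave the levels. The model was checked on simulated data. No 2 libraries of a group were duplicates: their chi-square per gene was 2.58 to 7.58.

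The members and lists were chosen with earlier results of these data known. Named genes were all members, every listed gene past the threshold for either tested contrast, and the 5 genes most correlated with Cited2. Other genes were named from the lists for context after their values were seen. Sequences came from RefSeq promoter windows of GRCm38.p6. Alternatives were DESeq2 1.42.0, its size factors, other count filters, limma 3.58.1 on log2 FPKM with a pseudocount of 1 or 0.1, a replicate block, fewer libraries in the fit and each library left out in turn.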

Additional observations from a re-analysis of the deposited data

How the results depend on the processing

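Cited2 and Vhl were called lower at high glucose in 19 of 19 settings, Cited2 between -0.60 and -0.53 and Vhl between -0.19 and -0.14 on the log2 scale, with a highest adjusted p of 1.76e-05 and 0.0486. Over the settings 76 counts stayed within 1.5 times, or at 0 where the main count was 0, and 9 moved. For TMAO at high glucose, 0 genes became 3 with the DESeq2 Wald test, 13 without a filter on low counts and 3 with the 6 high-glucose libraries fitted alone, and 0 to 1 with a library left out (1 without high-glucose vehicle replicate 1); the cause was not tested. No member was among the calls under these settings. HIF target genes called for glucose went from 4 to between 2 and 5 with a library left out, and were 2 without low-glucose vehicle replicate 1, low-glucose TMAO replicate 1, high-glucose vehicle replicates 2 or 3, or high-glucose TMAO replicate 3. With a library left out, signs turned for Hif1a (-0.0386 to 0.112), Egln1 (-0.0841 to 0.0104), Hif1an (-0.000397 to 0.0297) and Epas1 (-0.690 to 0.592) for TMAO at high glucose and for Egln1 (-0.004 to 0.0463) for glucose, none of them called. Samples with the same replicate number correlated at -0.0377 to 0.213 over 18 pairs (mean 0.033), and those with different numbers at -0.186 to 0.0862 over 36 pairs (mean -0.0165). On average 9 of 12 libraries correlated best with their own number. This is a hint from the data and not the design, and since not every same-number pair was over 0.1 the numbers were not taken as pairs. The replicate block gave 1680 genes called for glucose, with 2 members and 5 target genes, Cited2 at -0.56 and Vhl at -0.17 for glucose (adjusted p = 0.000977 for Vhl in edgeR, against 0.00927 without the block), Cited2 at -0.07 for TMAO at high glucose, and 0 genes for TMAO at high glucose. Depth limits Epas1 and Egln3, and neither protein nor oxygen was measured.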

Other observations

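Among the marker genes, Mafa, a beta-cell transcription factor gene, rose by 0.54 on the log2 scale at high glucose (SE 0.079, adjusted p = 0.00264 in edgeR), from 524 ± 41 to 765 ± 100 FPKM (SD, n = 6), the high-glucose libraries all lying above the low-glucose libraries. Iapp, the amylin gene, rose by 0.09 (SE 0.029, adjusted p = 0.0413 in edgeR). Gcg rose by 0.11 (SE 0.029, adjusted p = 0.0102 in edgeR), from 208 ± 6.3 to 225 ± 2.4 FPKM (SD, n = 6). Gapdh had group means of 22.8 FPKM at low glucose with vehicle, 27.7 FPKM at low glucose with TMAO, 3.89 FPKM at high glucose with vehicle and 32.7 FPKM at high glucose with TMAO, and it was called in neither tested comparison (adjusted p = 0.213 for glucose and 0.91 for TMAO at high glucose in edgeR).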
